A study of Mus musculus with 194 samples.

Results

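Insertions recorded with the Frontflip construct in the cortex of GFAPCre mice were compared with those recorded without it, with the FLEX construct, in mice that carry the same GFAPCre name. The members were taken from the labels: the 3 animals labelled Frontflip_GFAPCre and the 6 animals labelled GFAPCre without that prefix, together 9 of the 47 deposited tables. Calling cards is a method in which a transposase inserts a reporter transposon at TTAA sequences, so that the places it could reach are written into the DNA. With self-reporting transposons (SRT), each insertion is read from an RNA that starts in the transposon and runs into the flanking genome. Undirected transposase inserts most often into open regulatory DNA, and regions near genes active in a cell type tend to collect more insertions in that cell type.

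The labels do not use the word FLEX, which stands here for the GFAPCre tables without the prefix. FLEX is a usual name for a virus whose coding sequence lies inverted until Cre recombinase turns it around, and Frontflip names another construct used in Cre mice, which the labels do not describe further. All animals here received adeno-associated virus (AAV) at postnatal day 0 to 1, and each SRT cortex was cut into 10 pieces that were processed apart and then joined into 1 table. The name GFAPCre stands for Cre driven by the promoter of Gfap, the gene of the glial fibrillary acidic protein of astrocytes. The labels give neither the fragment of the promoter nor the age at collection. Neural progenitors can also use Gfap promoters, so the line is a model of astrocytes only as far as its Cre is confined to them. Other SRT cortex groups are set beside these 2 as background. They are GFAPCreNeg (6 animals) and Frontflip_GFAPCreNeg (3), Cre-negative by their names, Syn1Cre (6), named for the promoter of the neuronal gene Syn1, Syn1CreNeg (6), and C57bl6J (2), which received viruses that need no Cre.

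Astrocytes clear glutamate and potassium from around synapses, supply neurons with glutamine and lactate, and secrete matrix proteins that shape synapses. Slc7a11 is the cystine/glutamate exchanger, Grm3 a metabotropic glutamate receptor, Cpe a carboxypeptidase that trims peptide hormones, and Gpc5 a heparan sulphate proteoglycan of the glypican family. These 4 genes serve as markers of astrocyte loci. An insertion count does not measure expression, and in a bulk cortex more astrocytes with an insertion and more insertions per astrocyte cannot be told apart.

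The Frontflip animals held far fewer insertions. On chromosomes 1 to 19, they had 200629, 156877 and 159310 insertions, against 585792 to 1468600 in the FLEX animals (median 739144), so the groups did not overlap. The geometric mean of the FLEX animals was 4.68-fold higher (adjusted p = 0.0179, exact two-sided permutation test over 84 splits of the animals, Benjamini-Hochberg adjustment over 3 tests). The unadjusted p of 0.0119 is the smallest these splits can give. A single read supported 55.8% to 63.3% of Frontflip insertions and 5.64% to 16.6% of FLEX insertions. No sequencing pool held both groups: 25 pools held Frontflip_GFAPCre and 35 held GFAPCre, so pool and construct cannot be told apart. Background groups shared these pools. Of the 25, 14 also held Syn1CreNeg and 14 Frontflip_GFAPCreNeg, and of the 35, 20 also held GFAPCreNeg and 12 Syn1CreNeg. Window counts of the Frontflip animals correlated with one another at 0.552 to 0.596, those of the FLEX animals at 0.798 to 0.911, and across the groups at 0.590 to 0.738 (log2 scale, windows as points). Leaving out any 1 animal but FLEX animal 3 or 5 raised the adjusted p of the insertion count to 0.0536, although the groups stayed apart. The smallest unadjusted p that the splits can give was then 0.0357 without a Frontflip animal and 0.0179 without a FLEX animal.

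Frontflip insertions lay slightly closer to gene ends and less often within genes. Stretches reaching 1 kb to each side of the ends of protein-coding genes cover 3.04% of chromosome length and held 8.01%, 8.18% and 8.02% of Frontflip insertions. The FLEX animals ranged from 6.96% to 8.01%, with a mean of 7.48% ± 0.354 (SD, n = 6), so the closest animals of the 2 groups were nearly equal. The difference of means was 0.59 percentage points (adjusted p = 0.0357, exact permutation test). Over insertions with 2 or more reads, Frontflip animals had 7.59% to 8.35% and FLEX animals 7.01% to 8.02%, so the groups overlapped, and the difference of 0.43 was not called (adjusted p = 0.167, exact permutation test). Inside genes lay 57.5% ± 0.317 of Frontflip insertions (SD, n = 3) and 59.7% ± 0.799 of FLEX insertions (SD, n = 6), against 40.0% of chromosome length (adjusted p = 0.0179, exact permutation test). Leaving out any 1 animal but FLEX animal 3 took the adjusted p for gene ends above 0.05, to at most 0.107, and leaving out any but FLEX animals 3 and 5 took that for gene bodies to 0.0536. The limits on the smallest p given above hold for these tests too.

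The share of insertions at astrocyte loci was higher in each Frontflip animal than in every FLEX animal. The 6 astrocyte lists hold 80 genes, of which 79 lie on chromosomes 1 to 19, and with 10 kb on each side their loci cover 0.519% of chromosome length. In the Frontflip animals, 3.22%, 3.61% and 4.54% of insertions lay there. In the FLEX animals 1 to 6, the shares were 2.45%, 1.73%, 3.12%, 2.72%, 2.00% and 2.08%. The lowest Frontflip animal and the highest FLEX animal thus lay close together. Relative to chromosome length, the enrichment was 7.30-fold ± 1.31 with Frontflip (SD, n = 3) and 4.53-fold ± 0.993 with FLEX (SD, n = 6), and the ratio of the mean shares was 1.61. This share is a sum over genes chosen with earlier results known, and it was given no test. It was not computed over insertions with 2 or more reads. At the neuron lists, in the same animals, the enrichment was 4.04-fold ± 0.0894 with Frontflip and 3.86-fold ± 0.281 with FLEX, and there the groups overlapped. At the microglia list it was 2.52-fold ± 0.511 and 1.75-fold ± 0.273. There the groups overlapped only slightly, the lowest Frontflip share being 0.0542% and the highest FLEX share 0.0555%. Oligodendrocyte lineage loci had 1.03-fold and 0.91-fold, endothelial and mural 0.366 and 0.368, and ependymal and progenitor 1.47 and 1.36.

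Cre-negative animals had astrocyte shares that overlapped those of the Frontflip animals or lay above them. The shares were 2.97% to 5.25% in GFAPCreNeg, 3.59% to 4.97% in Syn1CreNeg and 6.33% to 9.45% in Frontflip_GFAPCreNeg, the last over only 2265 to 9377 insertions per animal. The shares were lowest in C57bl6J, at 1.43% and 1.45%, over 1510040 and 2133377 insertions. Within groups the share had no single order with the number of insertions. Among the FLEX animals, animal 2, with the most insertions, had the lowest share, but animals 5 and 6 (600388 and 665439 insertions) had 2.00% and 2.08%, below the 2.45% and 2.72% of animals 1 and 4 (943117 and 812849). Among GFAPCreNeg and among Syn1Cre animals, those with the fewest insertions (202904 and 432664) had the highest shares, 5.25% and 3.45%. The Syn1Cre animals with the most insertions (1332946 and 1250602) came next in their group, at 1.88% and 1.81%. In Syn1CreNeg the animals with 95188 to 116388 insertions had 3.59% to 4.97%, a range that holds the 3.84% to 4.33% of those with 407574 to 542788. GFAPCreNeg animal 6 had about as many insertions as Frontflip animal 1 (202904 and 200629) and a higher share (5.25% and 3.22%). The part of insertion number in the difference between Frontflip and FLEX was not tested. With every animal thinned to 156877 insertions, 26 of the 58 astrocyte-list loci then tested were called higher, against 140 of all 3367 loci then tested. Glul, Atp1b2 and Ndrg2 lost their calls. Thinning draws from tables that already hold at most 20 insertions at a position, so it does not stand for a shallower recording.

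**Figure D1:**
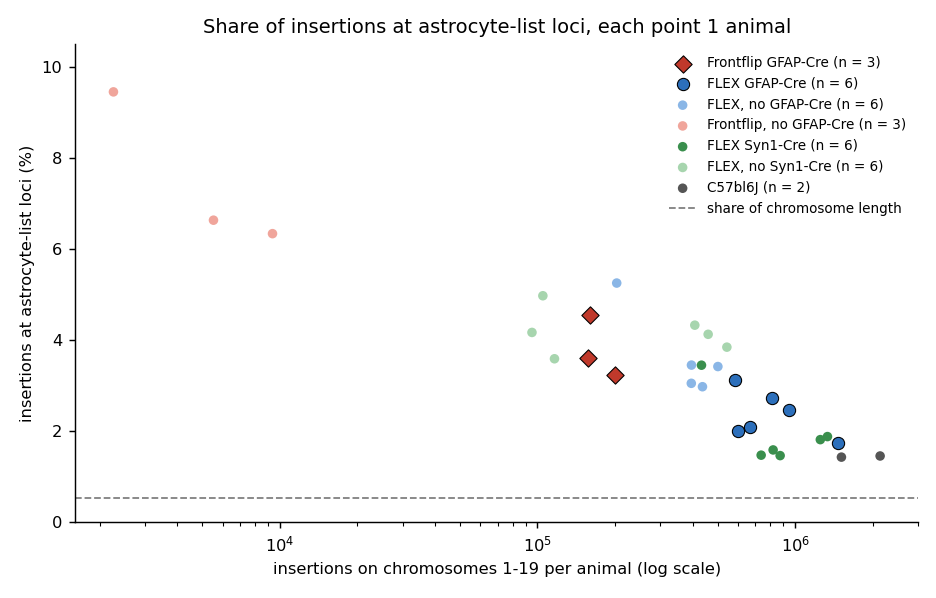
Percentage of insertions at the loci of the 6 astrocyte lists against the number of insertions on chromosomes 1 to 19 (log axis), 1 point per animal, for 7 groups; the dashed line is the 0.519% of chromosome length that the loci cover. The 3 Frontflip GFAPCre animals lie at 3.22% to 4.54%, above the 6 FLEX GFAPCre animals at 1.73% to 3.12%. Syn1CreNeg animals lie at 3.59% to 4.97% with 95188 to 116388 insertions and at 3.84% to 4.33% with 407574 to 542788.

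Across 50 kb windows, the called differences were mostly gains in Frontflip. Of 19628 windows tested with edgeR's quasi-likelihood test on insertion counts, 266 were higher and 23 lower in Frontflip at an adjusted p under 0.05, together 1.47% of those tested (higher 1.36%, lower 0.117%). Windows in which the groups did not overlap made up 5.01% with Frontflip higher and 5.87% with Frontflip lower. The higher windows were well filled, with a median of 100.5 normalised CPM in FLEX and 216 in Frontflip, against 28.8 and 28.3 over all windows. CPM are insertions per 1000000 insertions of an animal, and normalised CPM are also scaled by edgeR's TMM factors. Of the 266, 42 (15.8%) touched a locus of the astrocyte lists, against 1.38% of all windows tested and 0 of the 23 lower ones. The calls rested strongly on single animals. Without Frontflip animal 3, the animal with the highest astrocyte share, 0 windows passed in edgeR, although 1889 had an unadjusted p under 0.05, and without Frontflip animal 2, 41 passed. Without FLEX animals 1, 5 or 6 the count was 133, 154 and 117, and without FLEX animal 3 it was 715.

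The window with the largest gain among those named lay at chr11:109750001-109800000 at 1700012B07Rik, a gene named only by its clone. It had 151, 171 and 261 normalised CPM in the Frontflip animals and at most 82.5 in FLEX (log2 fold change 1.75 ± 0.253 SE, adjusted p = 0.00112, edgeR). The window of Lrig1, which restrains growth factor receptors, lay at chr6:94650001-94700000 and gained 1.66 ± 0.266 on the log2 scale (SE, adjusted p = 0.00257, edgeR). The window of Pamr1, a secreted protein with a peptidase domain, at chr2:102600001-102650000 had 817, 1039 and 1548 normalised CPM with Frontflip, against at most 523 with FLEX. Its log2 fold change was 1.56 ± 0.229 (SE, adjusted p = 0.00112, edgeR). Slc1a2, the main glutamate transporter of astrocytes, starts at position 102658239 of the same chromosome, just beyond that window. The remaining named gains lay in Frmd4b (1.63), at Fgl1 and Pcm1 (1.49), at Sergef and Tph1 (1.48), 19.7 kb from Rgs21 (1.68) and 24.5 kb from Cst3 (1.53), whose product cystatin C astrocytes secrete. These windows held 7 to 16 insertions in each Frontflip animal, so each value is imprecise.

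Far fewer windows were lower in Frontflip. The largest loss named was at chr15:39150001-39200000 in Rims2, a scaffold of the presynaptic release site, with 1, 2 and 2 insertions in the Frontflip animals (log2 fold change -2.05 ± 0.520 SE, adjusted p = 0.0377, edgeR). A window in Homer1, a postsynaptic scaffold, had a log2 fold change of -1.36. Others lay in Klhl29 (-1.70), Ccser1 (-1.36) and Galntl6 (-1.34), and 266 kb from Kcnh7 (-1.99) and 236 kb from Bche (-1.95). Each rested on 1 to 6 insertions per Frontflip animal.

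At the level of gene loci, taken as a protein-coding gene with 10 kb on each side, 150 of 10240 were higher and 25 lower in Frontflip (1.46% and 0.244% of those tested, together 1.71%, edgeR, adjusted p under 0.05). The groups did not overlap at 5.47% of loci with Frontflip higher and at 6.57% with Frontflip lower. Their calls depended on the same animals: 17 loci passed without Frontflip animal 3 and 60 without animal 2, 396 without FLEX animal 3 and 116 without FLEX animal 5. The called gains had a median log2 fold change of 1.04, and the called losses one of -1.11, against -0.02 over all loci. The lower loci were longer genes, with a median of 134 kb against 30.7 kb for the higher ones and 36.3 kb for all loci tested.

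**Figure D2:**
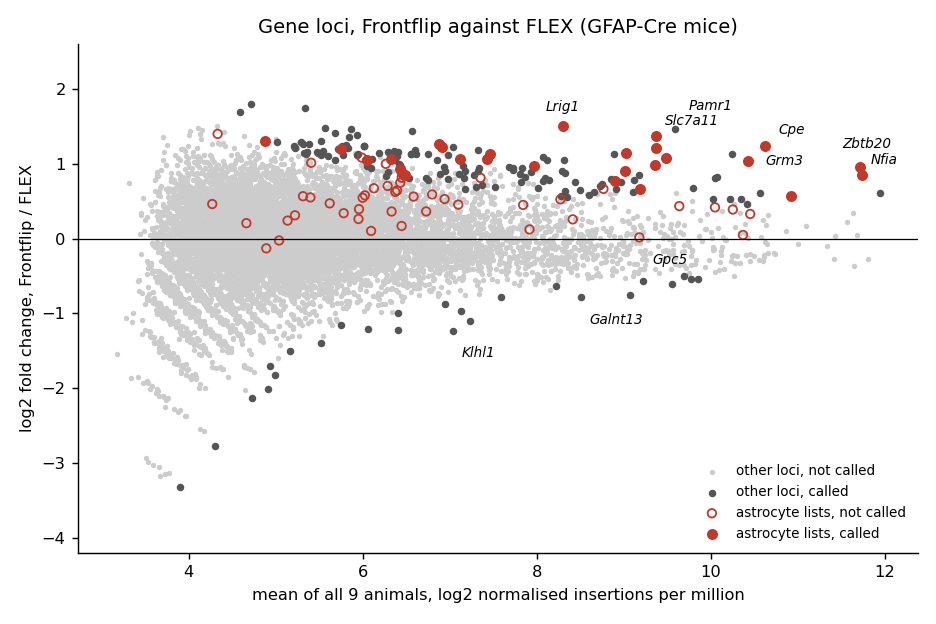
Log2 fold change of Frontflip over FLEX at gene loci against the mean normalised CPM of the 9 animals (log2). Filled red and dark grey points passed an adjusted p of 0.05 in edgeR's test, red marks the astrocyte lists and grey the other loci; of the 71 astrocyte-list loci tested, 27 passed and all of these lie above 0. 1 locus below -4.2 is outside the axis.

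The astrocyte lists held 27 of the 150 higher loci and none of the 25 lower ones. Of the 71 list loci tested, 27 were called higher (38.0%, against 1.46% of all loci tested, which is also the background for each list below). The groups did not overlap at 25 of the 71, Frontflip being higher, against 5.47% of all loci tested. A fitted log2 fold change above 0 was found at 69 of the list loci, where the median over all loci was -0.02. None was called lower, and none lower had an unadjusted p under 0.05 (DESeq2 also called 0 lower). Their median log2 fold change was 0.66. Without Frontflip animal 2, 11 of 73 were called, against 55 of all 11009 loci called higher. Without animal 3, 5 of 74 were called, against 14 of all 11032 called higher, and the median of the list loci was 0.47. The 5 were Slc7a11, Cpe, Lrig1, Sparcl1 and Plpp3. The lists were drawn up from known astrocyte genes with earlier results of these data in view, so the counts describe the lists and are no independent test of them.

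Of the 4 markers, Slc7a11, Grm3 and Cpe rose over their whole locus and Gpc5 did not. Slc7a11 (chr3:50364936-50499087, GRCm38.p6 annotation) had 808, 1106 and 1437 normalised CPM in Frontflip animals 1 to 3. In the FLEX animals the lowest was 259, the median 427 and the highest 602, so the groups were apart. The log2 fold change was 1.37 ± 0.184 (SE, adjusted p = 0.000106, edgeR), a 2.58-fold gain. Cpe (chr8:64592542-64693109) had 1993, 2420 and 3291 normalised CPM with Frontflip and 733 to 1435 with FLEX (median 1052). Its log2 fold change of 1.24 ± 0.153 (SE) had the lowest adjusted p of the markers, 2.6e-05 (edgeR). Grm3 (chr5:9485236-9725352) had 1601, 1960 and 2721 with Frontflip and 696 to 1514 with FLEX (median 995). Its groups were also apart (log2 fold change 1.03 ± 0.171 SE, adjusted p = 0.0015, edgeR), but the call was lost without Frontflip animal 3 and with FLEX animals 1 to 3 only.

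Gpc5 (chr14:115092201-116525192) spans 1433 kb, and over the whole locus Frontflip and FLEX overlapped. The Frontflip animals had 497, 531 and 728 normalised CPM, and the FLEX animals 515 to 677 (log2 fold change 0.02 ± 0.138 SE, adjusted p = 0.983, edgeR). The fitted sign turned under 10 of 21 alternatives. The window that holds its start, chr14:115050001-115100000, was higher in Frontflip. It had 197, 171 and 296 normalised CPM there, against 54.3 to 133 in FLEX (log2 fold change 1.46 ± 0.253 SE, adjusted p = 0.00383, edgeR). The highest bin of that region lay before the gene. Between 25 and 20 kb upstream of the start, Frontflip animals had 147.5 ± 37.4 CPM (SD, n = 3), FLEX animals 45.4 ± 12.3 (SD, n = 6) and GFAPCreNeg animals 75.7 ± 23.7 (SD, n = 6). In the first 5 kb of the gene the values were 23.5 ± 6.86, 15.8 ± 7.30 and 59.8 ± 18.6 in the same order, so there GFAPCreNeg was the highest. These bins were chosen after their values were seen and were not tested.

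Along Slc7a11 and Grm3, the called windows lay at or next to the start of the gene. In the 5 kb before the Slc7a11 start, Frontflip animals had 421 ± 84.3 CPM (SD, n = 3), FLEX animals 135.5 ± 38.3 and GFAPCreNeg animals 248 ± 98.8 (SD, n = 6 each). In the first 5 kb of Grm3, the values were 461 ± 104, 165.5 ± 55.2 and 330 ± 125 in the same order. In Slc7a11, the called window was chr3:50400001-50450000, which holds the RefSeq start used here (log2 fold change 1.46 ± 0.237 SE, adjusted p = 0.00257, edgeR), and the window at the far end of the gene had 24.1 and 19.8 normalised CPM in Frontflip and FLEX. In Grm3, the 2 called windows were those nearest the start, 9650001 and 9700001, with log2 fold changes of 1.00 and 1.32. In Cpe, the called windows were 64600001 and 64650001, with 1.12 and 1.33. Together they cover nearly the whole gene, so they do not place the gain within it.

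**Figure D3:**
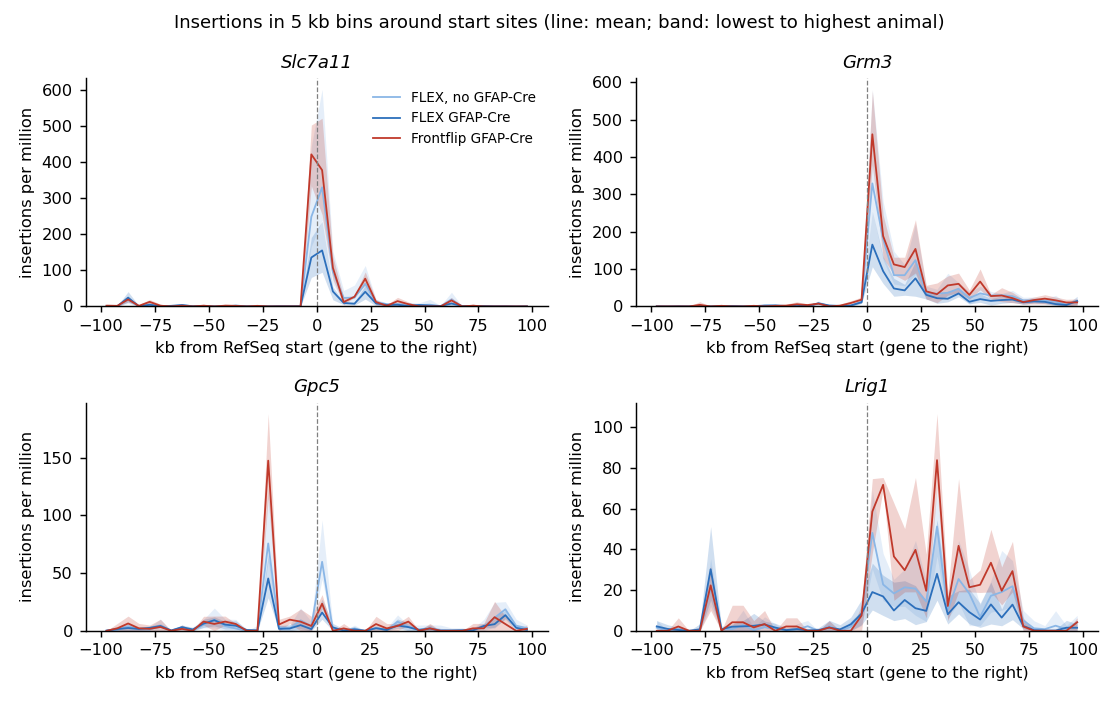
CPM (insertions per 1000000) in 5 kb bins from 100 kb before to 100 kb after the RefSeq start of Slc7a11, Grm3, Gpc5 and Lrig1, with the gene to the right; lines are group means and bands run from the lowest to the highest animal. The highest Frontflip bins are at the start of Slc7a11 and Grm3, 25 to 20 kb before Gpc5 (147.5 CPM, against 45.4 in FLEX), and within Lrig1.

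The start of Slc7a11 shows single insertion sites. Every insertion within the RefSeq start-site windows (250 bases before to 50 after a start, GRCm38.p6) lay on a TTAA, in all 32 tables used, as in Frontflip animal 1, where 2351 of 2351 did. TTAA reads alike on both strands and occurs in 52.3% of the 31396 windows on chromosomes 1 to 19, so it is no mark of astrocyte genes. Of 37 named genes looked up, 31 had a window. The sites below, 5′ to 3′ on the strand of the gene with the TTAA in capitals, are shown because the windows of these 3 genes held the most Frontflip insertions of those looked up, 56, 22 and 21. Slc7a11 lies on the minus strand (chr3:50443564-50443863), as do Dio2 and Gjb6.

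Slc7a11, 199 bases before the start: gctaagcccctctTTAAgagtatgctttgt
Slc7a11, 138 bases before the start: ccacaggctactgTTAAaaaaaaaaaaaaa
Slc7a11, 2 bases before the start: gacaggcggttgcTTAAatacggagccttc
Gjb6, 147 bases before the start: agccctcacttcaTTAAgggccctccagtg
Dio2, 208 bases before the start: tctttctctccctTTAAagcacaaagcaaa
Dio2, 164 bases before the start: cccacctctccttTTAAaaaagttgtagag

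At the first Slc7a11 site (chr3:50443809-50443812), Frontflip animals 1 to 3 had 10, 10 and 10 insertions, and FLEX animals 1 to 6 had 10, 10, 9, 12, 9 and 10. The raw numbers were thus alike although the FLEX animals had several times as many insertions in all. At the third site (chr3:50443612-50443615), the Frontflip animals had 8, 7 and 8 and the FLEX animals 12, 13, 12, 12, 12 and 12. The middle site, which is followed by a run of A, held 3 Frontflip insertions in all, and all of them were in animal 3. A cortex of 10 pieces read on both strands can yield at most 20 insertions at a position, and this number was reached at 7 to 39 positions of each FLEX table but at no more than 1 of a Frontflip table. Astrocyte loci held 54 to 211 positions with 10 or more insertions in FLEX animals and 14 to 23 in Frontflip animals. The part of this limit in the fold changes was not tested.

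The Gjb6 site (chr14:57133755-57133758) held 7, 8 and 7 insertions in the Frontflip animals and 6 to 12 in the FLEX animals. The first Dio2 site (chr12:90739243-90739246) held 4 in each Frontflip animal and 6 to 8 in each FLEX animal. The 250 bases before the Slc7a11 start (chr3:50443614-50443863, minus strand) show the first 2 of its sites in place, the third lying across the start.

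Slc7a11 upstream: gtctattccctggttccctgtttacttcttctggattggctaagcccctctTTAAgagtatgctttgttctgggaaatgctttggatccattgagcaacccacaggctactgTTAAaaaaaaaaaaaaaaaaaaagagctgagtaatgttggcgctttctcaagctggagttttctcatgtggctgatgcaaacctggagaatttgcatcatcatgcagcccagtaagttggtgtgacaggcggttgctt

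Among the genes that handle glutamate, GABA and glycine, 5 of 8 tested were called higher and the median log2 fold change was 0.91. The glutamate transporters gained alike. Slc1a2 (chr2:102658239-102790784) had 572, 815 and 861 normalised CPM with Frontflip and 297 to 501 with FLEX, a difference of 0.90 ± 0.156 on the log2 scale (SE, adjusted p = 0.0021, edgeR). Slc1a3 (chr15:8634124-8710807) had 818, 854 and 1251 against 297 to 703, a difference of 0.98 ± 0.193 on the log2 scale (SE, adjusted p = 0.0048, edgeR). Frontflip and FLEX animals did not overlap at either gene. Glul, which makes glutamine from glutamate, rose by 0.93 (adjusted p = 0.0393, edgeR). Glud1, Slc6a11 and Grm5 had fitted log2 fold changes of 0.55, 0.39 and 0.33 and did not pass. Slc7a10, Slc38a3 and Slc6a9 were too thinly filled to be tested, with 0 to 3 insertions in each Frontflip animal.

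Of the ion, water and junction genes, 7 of 10 tested were called higher, with a median of 0.91. Kcnj10, the potassium channel of astrocyte end feet, had 181, 162 and 291 normalised CPM with Frontflip and 65.2 to 163 with FLEX. Its lowest Frontflip animal lay just below the highest FLEX animal (log2 fold change 1.06 ± 0.267 SE, adjusted p = 0.0325, edgeR). Atp1b2, a subunit of the sodium pump, rose by 1.05. Gjb6, connexin 30 of gap junctions, rose by 1.22, Hepacam, an adhesion protein of astrocyte contacts, by 0.96, and Ttyh1, a membrane protein of the tweety family, by 0.85. The smallest called gain was 0.66 at Slc4a4, a sodium bicarbonate transporter. Gja1 (connexin 43), Aqp4 (the water channel) and Kcnj16 had 0.64, 0.62 and 0.53 and did not pass.

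Of the secreted and matrix genes, 3 of 8 tested were called higher, with a median of 0.65. Beside Cpe these were Sparcl1, a secreted protein that promotes synapses, and Bcan, the proteoglycan brevican. Sparcl1 (chr5:104079108-104114088) had 597, 951 and 907 normalised CPM with Frontflip and 233 to 479 with FLEX (log2 fold change 1.14 ± 0.175 SE, adjusted p = 0.00078, edgeR). Bcan rested on 7, 8 and 9 Frontflip insertions (1.31, adjusted p = 0.0490, edgeR), and its call was lost under 16 of 18 alternatives. Cst3 and Htra1 had 0.74 and 0.57, Gpc6 0.05 and Clu -0.13, none of them past the threshold.

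Of the metabolic genes, 4 of 12 were called higher, with a median of 0.63. Plpp3, which dephosphorylates lipid messengers (chr4:105157347-105232767), had 788, 1139 and 1258 normalised CPM with Frontflip and 287 to 604 with FLEX. The gain of 1.21 ± 0.179 (SE) had an adjusted p of 0.00048 (edgeR). Pla2g7, which breaks down platelet-activating factor, Dio2, which activates thyroid hormone, and Mt3, a metallothionein of the brain, rose by 1.26, 1.13 and 1.07. The flanks of the Mt3 and Mt2 loci overlap, so these loci share insertions. The usual markers Aldoc and Aldh1l1 had 1.08 (adjusted p = 0.118, edgeR) and 0.46 (adjusted p = 0.719) and did not pass.

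**Figure D4:**
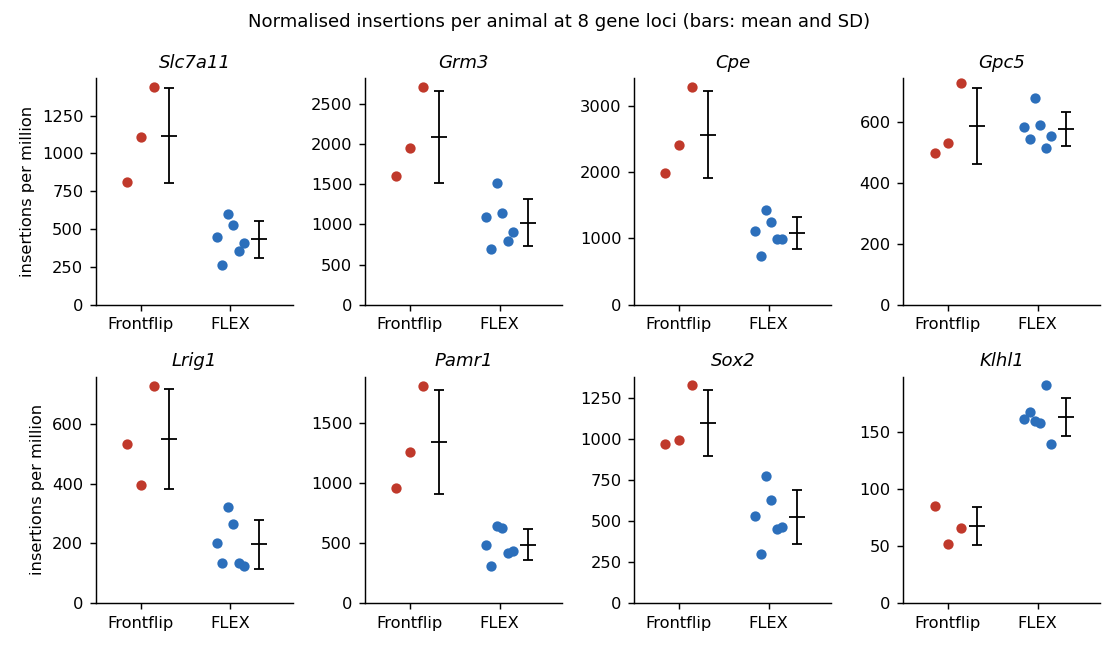
Normalised CPM in each of the 3 Frontflip and 6 FLEX animals at 8 gene loci, with the mean and SD beside the points. At Slc7a11, Grm3, Cpe, Lrig1, Pamr1 and Sox2 every Frontflip animal lies above every FLEX animal, at Gpc5 the groups overlap, and at Klhl1 the order is turned.

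Of the 16 astroglial transcription factor loci tested, 5 were called higher, with a median of 0.53. Zbtb20 and Nfia, factors that promote astrocyte formation, had means of 4946 ± 1079 and 4828 ± 976 normalised CPM with Frontflip (SD, n = 3), against 2553 ± 782 and 2683 ± 749 with FLEX (SD, n = 6). Both are long genes, of 759 and 541 kb.  Sox2, a factor of neural progenitors and glia, had 974, 996 and 1331 normalised CPM around its 2.47 kb with Frontflip and 302 to 778 with FLEX (log2 fold change 1.07 ± 0.183 SE, adjusted p = 0.0018, edgeR). Nfia, Zbtb20, Id3 and Npas3 rose by 0.85, 0.95, 0.87 and 0.57. Gli2, a mediator of hedgehog signalling, had 1.00 and Sox9 0.54, and neither passed.

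Of the receptors and other markers, 3 of 17 were called higher, with a median of 0.56. Lrig1 (chr6:94604529-94700298) had 532, 395 and 728 normalised CPM with Frontflip and 124 to 321 with FLEX. Its gain of 1.50 ± 0.233 (SE, adjusted p = 0.00078, edgeR) was the largest among the astrocyte lists. Ndrg2 and the RNA-binding protein gene Msi2 rose by 1.19 and 0.77. Gfap itself, whose promoter gives the Cre its name, had 26.5 ± 11.9 normalised CPM with Frontflip (SD, n = 3) and 24.8 ± 7.15 with FLEX (SD, n = 6), a log2 fold change of 0.21 that did not pass. S100b had -0.03, and Fgfr3, at 1.40, did not pass either (adjusted p = 0.11, edgeR).

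The lists of other cell types had 3 called loci among 67 tested, all of them higher in Frontflip. This is a larger share than the 1.46% called higher among all loci tested. The medians of these lists were lower than those of the astrocyte lists. Of the 10 pan-neuronal loci 0 were called in edgeR (median 0.12), 2 had an unadjusted p under 0.05 and DESeq2 called 1. Of the 15 excitatory neuron loci, Pou3f2 and Pou3f3, factors of upper-layer neurons and their progenitors, rose by 0.85 and 0.73 (adjusted p = 0.013 and 0.012, edgeR). The call at Pou3f2 rested on the flanks: over the gene body alone its log2 fold change was -0.14. Calls in the astrocyte lists could rest on flanks too. Over the gene body alone Sox2, Gjb6, Hepacam, Dio2, Kcnj10 and Atp1b2 lost theirs, although the sign of their fold changes did not turn. Of the 10 inhibitory neuron loci 0 were called by either tool, 2 had an unadjusted p under 0.05, and the median of -0.49 was the lowest of the 13 lists. Among 6 microglial loci, Sall1, a factor of microglia and kidney, rose by 0.91 (adjusted p = 0.025, edgeR). In edgeR, 0 were called among the oligodendrocyte lineage (13 tested, median -0.0059), the endothelial and mural (7 tested, median 0.41) and the ependymal and progenitor loci (6 tested, median 0.10). At an unadjusted p under 0.05 these lists held 4, 1 and 0, and DESeq2 called 1, 0 and 0. Olig1, at 1.16, had an adjusted p of 0.069 (edgeR). Many defining genes of these lists held almost no insertions: Tmem119 and Tyrobp of microglia and Cldn5 of endothelium had 0 in all 3 Frontflip animals.

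**Figure D5:**
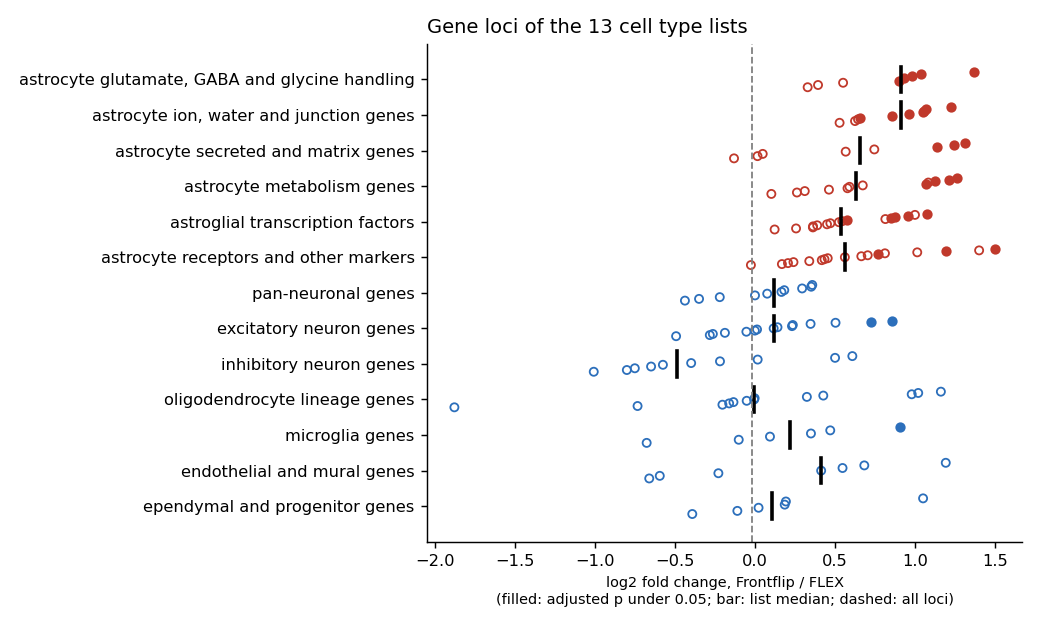
Log2 fold change of Frontflip over FLEX at each tested locus of the 13 cell type lists, 1 point per gene, filled where the adjusted p was under 0.05, with a bar at the list's median and a dashed line at the median of all loci, -0.02. The 6 astrocyte lists (red) have medians from 0.53 to 0.91 and hold 27 of the 30 called points.

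Outside the lists, Pamr1 held the most insertions of the named gains. Its locus (chr2:102549939-102643041) had 959, 1255 and 1808 normalised CPM in Frontflip and 309 to 639 in FLEX (log2 fold change 1.47 ± 0.178 SE, adjusted p = 2.6e-05, edgeR). Tmem247, which encodes a membrane protein, rose by 1.74 on 13, 14 and 11 Frontflip insertions. Men1, the tumour suppressor menin, and Cdkn1a, the cell cycle inhibitor p21, rose by 1.48 and 1.46. Tnc, the matrix protein tenascin C made by immature astrocytes, rose by 1.41 (adjusted p = 0.0121, edgeR), with 55.2, 90.6 and 119 normalised CPM against 25.2 to 53.8. The remaining named gains were 1700012B07Rik (1.43), Nadk, the kinase that makes NADP (1.35), Stt3a, a catalytic subunit of N-glycosylation (1.31), Pars2, a mitochondrial tRNA synthetase (1.29), and Ephx1, an epoxide hydrolase (1.27).

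Of the 25 lower loci, 12 are named here. Klhl1 (chr14:96105265-96519034), an actin-binding protein of neurons, had 85.3, 51.8 and 66.2 normalised CPM with Frontflip and 140 to 192 with FLEX. Its log2 fold change of -1.24 ± 0.221 (SE, adjusted p = 0.0023, edgeR) kept its call under all 21 alternatives. Sema3e, an axon guidance ligand, had 90.4, 77.6 and 86.1 against 155 to 213 (log2 fold change -1.11 ± 0.208 SE, adjusted p = 0.0037, edgeR). Wasf1, an actin regulator of dendrites, fell by 0.97, Gnai1, an inhibitory G protein subunit, by 1.22 and Galnt13, a glycosyltransferase of neurons, by 0.79. Pja2 (-1.50), Larp4 (-1.40), Rngtt (-1.22), Eipr1 (-1.15), Sik2 (-0.995), Strbp (-0.88) and R3hdm1 (-0.78) completed the named losses, all but R3hdm1 on fewer than 20 insertions in each Frontflip animal. Several of these calls changed with the processing or with 1 animal left out. Eipr1 lost its call in 14 of 21 alternatives, with a log2 fold change as small as -0.23, and Larp4 in 13 of 20, down to -0.56. Sik2 lost it in 12 of 21, Pja2 in 11 of 19, Galnt13 in 7 of 21, Strbp and R3hdm1 in 6 of 21 each, Wasf1 in 5, Rngtt and Gnai1 in 4 each and Sema3e in 2. Gains beside Bcan were unstable as well. Ndrg2 lost its call in 13 of 20 alternatives, Glul and Ephx1 in 12 of 20 each and Id3 in 11 of 20. Npas3 lost it in 10 of 21, Kcnj10 in 9 of 21 and Atp1b2 in 8 of 21.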

How the data were processed

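SRT calling card tables of 32 animals in 7 groups were used. Per the labels' protocols, RNA was read from 10 pieces per cortex. Per the submitters' processing notes, Novoalign, Bowtie2 and the build mm10 were used, with no versions or roles; filters are not given in the sources used here. Each deposited table lists 1 insertion per line with a read count; the counts are raw, judged from their values, and files give coordinates from 0, printed here from 1. The other tables, including the SP1 tables that the plan for every SRT cortex group would cover, were not used here.

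Lines were counted per animal in 50 kb windows and in 20665 RefSeq protein-coding genes (GRCm38.p6) of chromosomes 1 to 19 with 10 kb flanks. Loci that overlap share insertions. edgeR 4.0.16 (R 4.3.3) was run with TMM factors, filterByExpr and the quasi-likelihood test over all features with Benjamini-Hochberg adjustment. Normalised CPM use these factors, and profiles, shares and levels in other groups are per total insertions. The p-values of edgeR weigh a difference between groups against the spread between animals, moderated over all features. Those of the permutation tests rank a difference of means among the splits of the animals. Neither can tell construct from pool, as no pool held both groups. DESeq2 1.42.0 was an alternative. In simulated counts with 200 features changed 2-fold, 20% of windows and 39% of loci were recovered, and 2.44% and 8.24% of calls were false.

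Named were the 8 windows and 12 loci highest and lowest in log2 fold change that passed, did not overlap between groups and had at least the median mean count (windows 200 kb apart, loci not overlapping), the 4 markers, and list members that passed (at most 6 by p, else the lowest p). Other genes were named as list members after their values were seen. Some items that the rule names are not reported here. Members and lists were chosen with earlier results of these data known. Figures and tables used Python 3.11.15.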

Additional observations from a re-analysis of the deposited data

Results flagged for a closer look

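In GFAPCreNeg, 1 of 6 animals stood apart in the share of insertions at astrocyte loci, with 5.25% against 2.97% to 3.45% in the others, and it had the fewest insertions of its group. In Syn1Cre, 1 of 6 animals had 3.45% against 1.46% to 1.88%, and it too had the fewest insertions. These were 2 of 89 groups of values checked in this way, and chance alone marks about 1 in 20. No FLEX GFAPCre animal was marked at a named locus or window. Most of these were named because they passed edgeR's test, and many also because the groups did not overlap. That choice disfavours a stray FLEX animal, so the absence of marks does not show that these animals were even.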

How the results depend on the processing

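Leaving out 1 animal at a time gave 0 to 715 called windows, 17 to 396 called loci and 5 to 39 called astrocyte loci. It gave differences of -0.70 to -0.62 in log10 insertions, 0.48 to 0.69 percentage points near gene ends, -2.37 to -1.98 points inside genes and 1.06 to 1.72 points in the astrocyte share. With 2 or more reads per insertion, 169 windows and 100 loci were called. Of the 9436 loci then tested, 86 were called higher, 18 of them in the astrocyte lists. Under this filter the gene-end difference was 0.43 and no longer called (adjusted p = 0.167, exact permutation test), and the difference in log10 insertions was -1.01. Counting distinct positions gave 620 windows, 286 loci and a gene-end difference of 1.40. With FLEX animals 1 to 3 only, 0 windows (edgeR, 1426 with an unadjusted p under 0.05), 24 loci and 5 astrocyte loci were called; with FLEX animals 4 to 6 only, 431 windows and 232 loci. In the exact permutation tests those subsets each gave an adjusted p of 0.1, the smallest that 3 against 3 animals can give. They gave differences of -0.74 and -0.60 (log10 insertions), 0.57 and 0.61 (gene ends) and -1.84 and -2.43 (inside genes). Without a filter 300 loci, over gene bodies 84 loci (15 astrocyte), and with 50 kb flanks 346 loci were called. The replicate block, on animals 1 to 3 of both groups, gave 370 windows and 303 loci, where the same animals without the block gave 0 and 24. Same-numbered animals correlated at 0.0048, 0.0687 and 0.176, so the numbers are no evidence of pairing. The counts with the block thus rest on a pairing that was not shown. The Gpc5 locus turned to -0.042 with total scaling, -0.057 unfiltered, -0.11 with distinct positions, -0.16 with 2 or more reads, -0.085 with the block and -0.074 with FLEX animals 1 to 3; leaving out 1 animal it ran from -0.18 to 0.12. Pou3f2 over the gene body had -0.14. Total scaling moved the median of all windows to -0.12 and the share of called windows that were higher from 92.0% to 84.03% (loci 85.7% to 76.0%). Without a filter these shares were 70.9% and 66.7%, and with distinct positions the loci's was 71.7%. Of 51 named called loci, 7 kept their call in all 21 alternatives: Slc7a11, Cpe, Lrig1, Pamr1, Sparcl1, Plpp3 and Klhl1. Of all 67 called loci and windows named, 57 lost it without Frontflip animal 3, 56 with FLEX animals 1 to 3 only and 38 with 2 or more reads per insertion. Causes were not tested. Depth limits the comparison: the shallowest Frontflip animal holds 156877 insertions over 49223 windows.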

Other observations

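Levels at 4 loci were set side by side across the 7 groups, chosen after their values were seen. Klhl1 had 66.2 ± 17.1 CPM in Frontflip GFAPCre (SD, n = 3), 128 ± 19.4 in Syn1CreNeg, 138 ± 24.7 in Syn1Cre, 157 ± 36.4 in GFAPCreNeg and 165 ± 15.9 in FLEX GFAPCre (SD, n = 6 each), and 188 ± 34.8 in C57bl6J (SD, n = 2). Frontflip_GFAPCreNeg held 1 insertion there. At Sema3e, where that group also held 1 insertion, Frontflip GFAPCre had 82.6 ± 6.67 and Syn1CreNeg 139 ± 47.0, and C57bl6J was highest at 273 ± 13.6 (SD, n = 2). Slc7a11 ran from 146 ± 2.67 in C57bl6J and 311 ± 232 in Syn1Cre to 438 ± 125.5 in FLEX GFAPCre, 856 ± 338 in GFAPCreNeg, 1013 ± 245.5 in Syn1CreNeg, 1085 ± 280 in Frontflip GFAPCre and 3359 ± 916 in Frontflip_GFAPCreNeg, the last on 52 insertions in all. Frontflip GFAPCre and Syn1CreNeg were neighbours in that order and did not differ beyond their spread. Pamr1 had the same order of the 7 groups, from 185 ± 12.3 in C57bl6J to 3186 ± 384 in Frontflip_GFAPCreNeg. These orders are descriptions and were not tested.

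With 156877 insertions drawn from each animal, 81.4% to 84.4% of Frontflip insertions lay at distinct positions, against 87.3% to 92.4% of FLEX insertions. The draw took all insertions of Frontflip animal 2, but only a part of the 585792 to 1468600 of the FLEX animals. The limit of 20 insertions at a position acts before the draw, so the groups are not compared on equal terms. Among FLEX animals, animal 3, with the fewest insertions, had the lowest value and animal 2, with the most, the highest.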
